A study of Homo sapiens with 4 samples.

Results

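PPIF encodes cyclophilin D, the cyclophilin of the mitochondrial matrix, and its mRNA was examined together with that of 7 paralogs, PPIA, PPIB, PPIC, PPID, PPIE, PPIG and PPIH. These 8 genes were taken by name from the 34080 genes in the deposited tables, and estimated read counts were summed over the Ensembl transcripts of each symbol. PPIF was chosen on its change in the same contrast that is described here, so the values of PPIF and of the paralogs set against it are given as a description with no test.

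The study used HK-2, a human kidney line that was immortalised from proximal tubule epithelium, carrying a Tet-On transgene for HA-PRCC-TFE3, an HA-tagged fusion of PRCC with the transcription factor TFE3 that is found in a form of renal cell carcinoma. Both groups carried the transgene and differed, per the labels, in doxycycline, which was absent in Doxy(-) and present at 0.2 microg/ml for 24 h in Doxy(+), with 2 libraries of polyadenylated RNA in each group. Cells that lack the transgene were not analysed here, so effects of doxycycline and of PRCC-TFE3 cannot be told apart. The labels do not say whether the libraries of a group came from separate cultures or clones, and the p-values below therefore measure the spread between these libraries, which may be technical.

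Cyclophilins are peptidyl-prolyl cis-trans isomerases, which turn the peptide bond before a proline and share an isomerase domain that in several of them is the target of the drug cyclosporin A. The paralogs differ mainly in where they act: PPIA in the cytosol, PPIB and PPIC in the secretory pathway, PPID with the HSP90 chaperone, and PPIE, PPIG and PPIH in the nucleus with the splicing machinery. Cyclophilin D is known as a regulator of the mitochondrial permeability transition pore, whose opening under calcium load and oxidative stress contributes to tubular cell death in ischaemic kidney.

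The letters of the E-box, CACGTG, which basic helix-loop-helix factors of the TFE3 family are known to recognise, were searched around the start of each gene's canonical transcript on hg38, because TFE3 is the induced factor. CACGTG reads the same on both strands. Within 1000 bases on either side of the start, PPIF held 3 matches, PPIH 2, PPIA 1 and PPID 1, whereas PPIB, PPIC, PPIE and PPIG held 0. Among the 13569 genes tested, 32.0% held at least 1 match in a window of this size and 1.41% held 3 or more, the number seen at PPIF. The matches at these genes are printed below with 12 bases on each side, 5′ to 3′ on the strand of the gene, with the E-box letters in capitals.
PPIF, 758 bases upstream (chr10:79346711-79346716, plus strand): gcccactttcagCACGTGgggtttaaatgc
PPIF, 487 bases downstream, intron 1 (chr10:79347956-79347961, plus strand): cgggagggagggCACGTGtggaggagaaag
PPIF, 662 bases downstream, intron 1 (chr10:79348131-79348136, plus strand): ccagcgggtgctCACGTGgcggcccttgca
PPIH, 355 bases upstream (chr1:42658068-42658073, plus strand): gaagacagacagCACGTGtggcggtgcaga
PPIH, 239 bases upstream (chr1:42658184-42658189, plus strand): ccttagtacagcCACGTGagtggggtgacc
PPIA, 403 bases downstream, intron 1 (chr7:44797084-44797089, plus strand): tcctgtccgacgCACGTGctcggcggccgc
PPID, 606 bases downstream, intron 1 (chr4:158722785-158722790, minus strand): ataatatatcagCACGTGctgtgttattta

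Beyond this window, the search from 5000 bases upstream to the end of the transcript gave further matches at every paralog except PPIA. At PPID they lay 3474 bases upstream and 1056, 7070 and 13991 bases downstream, in 19270 bases. At PPIB they lay 3526 bases upstream and 4834 and 5520 bases downstream, in 12206 bases. The nearest at PPIG lay 1055 bases downstream. PPIF held 2 further matches in 12866 bases, and both lay inside the gene.
PPIF, 1489 bases downstream, intron 1 (chr10:79348958-79348963, plus strand): gaatggaatgtcCACGTGcttcttccttag
PPIF, 4102 bases downstream, exon 4 (chr10:79351571-79351576, plus strand): tttacactgaagCACGTGgggccaggtgag

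In the RefSeq promoter windows of GRCh38.p14, which are 300 bases long and lie mostly upstream of a start, CACGTG was present in 7.26% of 35116 windows. Of the 6 cyclophilins with a window in that table, it was present at PPIH only, so none of the PPIF matches lay in the PPIF window. The M-box core, TCATGTG, a related motif of the same family of factors that was searched on both strands, was present in 2.92% of the promoter windows and at PPIA only among the 6. Within 1000 bases of the start it was present in 12.3% of the genes tested, with 2 matches at PPIA, 1 at PPID, 1 at PPIE and 0 at PPIF. Neither motif contains the other. These are matches of letters, and no binding was measured in the files used here.

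**Figure D1:**
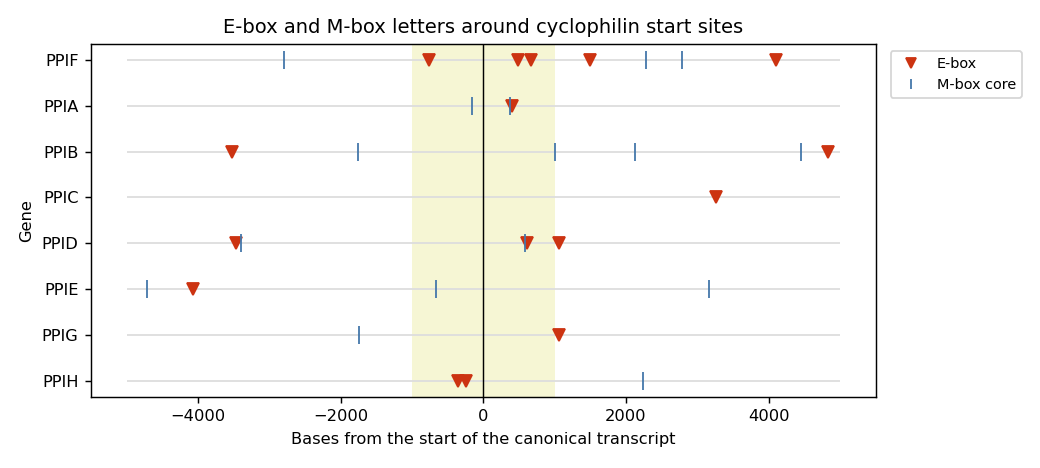
Positions of E-box letters (red triangles) and M-box core letters (blue ticks) around the start of the canonical transcript of each cyclophilin, in bases along the direction of the gene, with the window of 1000 bases on either side shaded. PPIF holds 3 E-box matches in the shaded window, PPIH 2, PPIA 1 and PPID 1.

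Library totals ran from 14042545 to 16618401 estimated reads, and all 8 cyclophilins passed the low-count filter that left 13569 genes. TFE3, whose transcripts take the reads of the fusion that fall in TFE3 sequence, was measured at 66.9 and 69.1 CPM (read counts scaled to a common library total) in Doxy(-) against 367 and 322 CPM in Doxy(+), a log2 fold change of 2.34 ± 0.072 (SE, n = 2 per group; edgeR quasi-likelihood test, adjusted p = 4.78e-05). The TFE3 value depended on the processing. It was 2.60 when transcript copies under identifiers that did not match the annotation were added. With length-scaled counts it was 2.84, and by limma on log2(TPM + 1) and log2(TPM + 0.1) it was 2.84 and 2.87. Of 14 proximal tubule markers in the files, PAX8, DPP4, CDH6 and GGT1 were well expressed, while 7 stayed under 1 CPM in every library, among them LRP2, AQP1, ANPEP and HNF4A, and the transporters SLC22A6 and SLC22A8 were listed at 0. Of the 8 tubule markers tested, 3 rose, namely DPP4 (log2 fold change 0.69, edgeR adjusted p = 0.000281), MME (1.31, edgeR adjusted p = 0.00264) and GGT1 (0.25, edgeR adjusted p = 0.041), and 1 fell, CDH6 (-0.94, edgeR adjusted p = 0.000237), with a summed level of 959 and 979 CPM in Doxy(-) against 1039 and 1066 CPM in Doxy(+). The 12 markers of other renal and stromal cells summed to between 21.9 and 24.1 CPM in Doxy(-) and between 19.3 and 20.9 CPM in Doxy(+), with UMOD, AQP2 and CDH5 among those at 0. Most of that sum was COL1A1, which fell from 22.3 and 20.2 CPM to 16.7 and 15.5 CPM (log2 fold change -0.40, edgeR adjusted p = 0.0414), while of the other 2 tested 1 rose, to 1.32 CPM at most. The 6 epithelial markers, keratins among them, summed to 1377 and 1395 CPM in Doxy(-) against 1113 and 1118 CPM in Doxy(+), and 3 of the 5 tested fell, KRT8, KRT18 and KRT19. The part of these marker changes in the results below was not tested.

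First, PPIF mRNA was about 4 times as abundant with doxycycline. PPIF (ENSG00000108179.14, chr10:79347469-79355334, plus strand) was measured at 316 and 313 CPM without doxycycline and at 1286 and 1280 CPM with it. The 2 libraries of each group lay close together, at 314 ± 2.32 and 1283 ± 4.09 CPM (mean ± SD, n = 2), and the groups were far apart. The log2 fold change was 2.03 ± 0.0276 (SE), a fold of 4.08, and it stayed between 2.02 and 2.10 under the 14 other ways of processing. The estimated reads behind these values numbered 4072 and 4594 in Doxy(-) against 16555 and 17186 in Doxy(+). As these are bulk libraries, a change in the number of expressing cells and a change in RNA per cell cannot be told apart.

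Compared with all genes tested, the log2 fold change of PPIF lay at percentile 99.6. Among the 2132 genes whose mean was 100 CPM or more it ranked 5, behind CENPT, GPNMB, TFE3 itself and SQSTM1. On the length-scaled TPM scale, which allows levels of different genes to be compared, PPIF moved from rank 498 and 460 in Doxy(-) to rank 115 and 114 in Doxy(+) among all genes. PPIA, the cytosolic cyclophilin A that is often used as a reference gene, held rank 41 and 42 in Doxy(-) against 37 and 39 in Doxy(+).

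In contrast, the log2 fold changes of the 7 paralogs spanned only -0.19 to 0.21, with a median of 0.04 against 0.0006 over all genes tested. PPIF exceeded the paralog median by 1.99 on the log2 scale. The CPM values of the groups did not overlap for 3 of the 7 paralogs, beside 61.1% of all genes tested, and since this contrast chose the genes nothing further was read from this share.

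**Figure D2:**
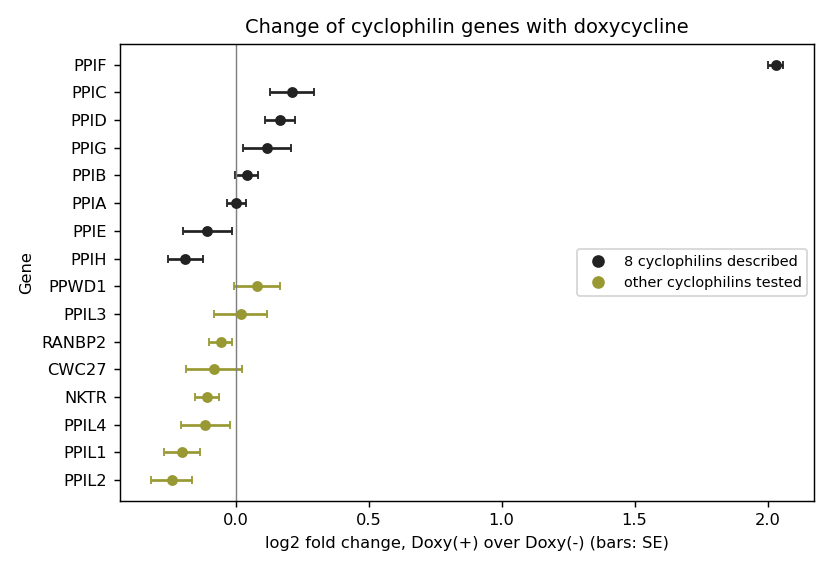
Log2 fold change, Doxy(+) over Doxy(-), of the 8 cyclophilins (black) and of the 8 other cyclophilin genes that passed the low-count filter (olive), from the edgeR fit on 2 libraries per group, with bars for the standard error. PPIF sits at 2.03, and all other genes shown sit between -0.24 and 0.21.

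The paralog PPIA (chr7:44796680-44824564, plus strand) was measured at 1169 and 1100 CPM in Doxy(-) against 1146 and 1127 CPM in Doxy(+). The Doxy(+) libraries lay between the Doxy(-) libraries, and the log2 fold change was 0.00 ± 0.0363, with a sign that changed between ways of processing. PPIA reads are shared with many processed copies of the gene: 27.3% of the 31-base words of its canonical transcript also occur in other genes. That transcript, PPIA-204, took only 4.77% to 5.48% of the PPIA reads per library, and words of the other PPIA transcripts were not searched. The 96 genes named as PPIA pseudogenes or copies held at most 20.2% as many estimated reads as PPIA in a library. How many reads were assigned to the wrong gene was not measured, so the error of the PPIA level is not known. Its log2 fold change stayed between -0.04 and 0.04 over 14 settings, including the addition of the reads of these 96 genes.

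Of the cyclophilins of the secretory pathway, PPIB (chr15:64155740-64163134, minus strand), which works with the collagen prolyl 3-hydroxylation complex in the endoplasmic reticulum, was measured at 247 and 231 CPM in Doxy(-) against 248 and 243 CPM in Doxy(+). Its groups overlapped, with a log2 fold change of 0.04 ± 0.0431 whose sign also depended on the processing. PPIC (chr5:123023250-123036725, minus strand) was measured at 25.0 and 24.4 CPM in Doxy(-) against 29.9 and 27.3 CPM in Doxy(+). Its groups did not overlap, and the log2 fold change of 0.21 ± 0.0816 was the largest among the paralogs.

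PPID (chr4:158709127-158723396, minus strand), a co-chaperone of HSP90, was measured at 53.1 and 55.6 CPM in Doxy(-) against 60.0 and 62.0 CPM in Doxy(+). Both Doxy(+) libraries lay above both Doxy(-) libraries, with a log2 fold change of 0.17 ± 0.0564.

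Among the nuclear cyclophilins, PPIH (chr1:42658335-42676758, plus strand), a component of the U4/U6.U5 small nuclear ribonucleoprotein, was measured at 32.4 and 32.2 CPM in Doxy(-) against 28.2 and 28.5 CPM in Doxy(+). It was the only paralog with both Doxy(+) libraries below both Doxy(-) libraries, with a log2 fold change of -0.19 ± 0.0659. PPIE (chr1:39692182-39763914, plus strand), a cyclophilin of the activated spliceosome, was measured at 52.7 and 47.6 CPM in Doxy(-) against 43.0 and 50.1 CPM in Doxy(+), with a log2 fold change of -0.11 ± 0.0916. Its groups overlapped, and the log2 fold change ran from -0.22 to -0.003 depending on the setting. PPIG (chr2:169584342-169641406, plus strand), a large nuclear cyclophilin with an arginine-serine domain, was measured at 85.7 and 101 CPM in Doxy(-) against 95.4 and 107 CPM in Doxy(+), with a log2 fold change of 0.12 ± 0.092 and groups that overlapped.

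Next, the levels were set in order on the TPM scale. In Doxy(-), PPIA was highest at 2188 and 2048 TPM, followed by PPIB at 360 and 371 TPM and by PPIF at 255 and 271 TPM. In Doxy(+), PPIF reached 1126 and 1123 TPM and passed PPIB, which was at 372 and 364 TPM, while PPIA stayed highest at 2199 and 2164 TPM. The order PPIA, PPIB, PPIF of Doxy(-) thus became PPIA, PPIF, PPIB in Doxy(+), with no overlap between neighbours in either group.

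The other 5 paralogs lay well below these 3 genes. PPIH was at 73.5 and 71.9 TPM in Doxy(-) against 66.2 and 66.9 TPM in Doxy(+), and PPID was at 62.8 and 66.3 TPM in Doxy(-) against 76.4 and 70.2 TPM in Doxy(+), so these neighbours changed places. PPIE was at 57.6 and 51.5 TPM in Doxy(-) against 48.2 and 56.3 TPM in Doxy(+). PPIG was at 47.3 and 51.8 TPM in Doxy(-) against 50.3 and 56.9 TPM in Doxy(+), and overlapped with PPIE in both groups. PPIC was lowest throughout, at 28.0 and 27.2 TPM in Doxy(-) against 34.6 and 31.4 TPM in Doxy(+).

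As a share of PPIA on the TPM scale, PPIF stood at 11.7% and 13.2% in Doxy(-) against 51.2% and 51.9% in Doxy(+). The ratio of PPIF to PPIB TPM was 0.710 and 0.730 in Doxy(-) against 3.03 and 3.08 in Doxy(+). The TPM of the 8 genes summed to 3072 and 2959 in Doxy(-) against 3973 and 3933 in Doxy(+), and PPIF made up 8.32% and 9.15% of that sum in Doxy(-) against 28.3% and 28.5% in Doxy(+). Without PPIF, the 7 paralogs summed to 2817 and 2688 TPM in Doxy(-) against 2847 and 2810 TPM in Doxy(+).

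**Figure D3:**
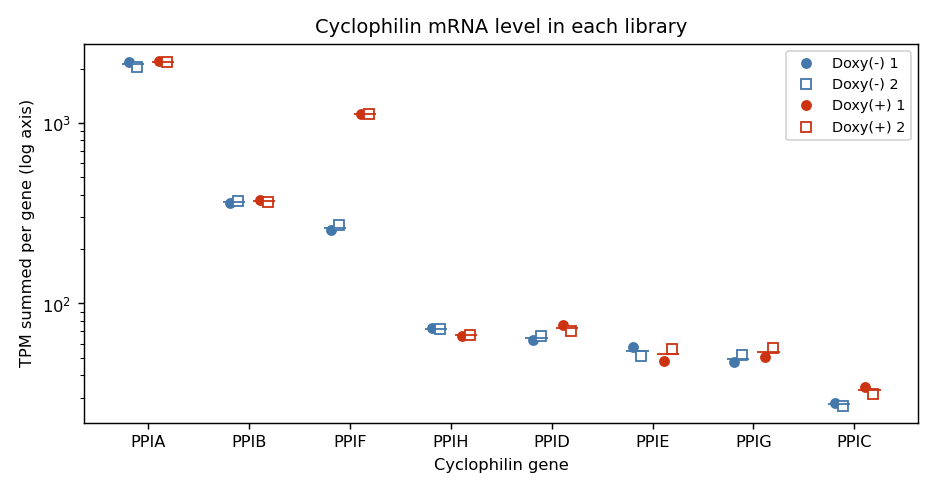
TPM of each cyclophilin in each library on a log axis, ordered by the Doxy(-) mean, with Doxy(-) in blue and Doxy(+) in red, library 1 as filled circles, library 2 as open squares and short lines at the group means (n = 2). PPIF moves from 255 and 271 TPM to 1126 and 1123 TPM, above PPIB, while the paralogs stay near their Doxy(-) values.

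Reads of PPIF are little shared with other genes. Only 5 of the 2166 words of 31 bases in its canonical transcript, 0.231%, occur in another annotated gene, and no tested gene overlaps PPIF on the genome. PPIB shares 53.1% of its words with SNX22, and PPIB, PPIC, PPID and PPIE each overlap a tested gene on the other strand, namely SNX22, SNX24, ETFDH and BMP8B, so that the values of these 4 paralogs are less certain where the counting did not use the strand.

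At the protein level, computed from the annotated coding sequences, PPIF has 207 residues and is closest to PPIA, with 76.5% identity over 162 aligned residues. Identity to PPIF was 66.1% over 171 aligned residues for PPIE, 65.9% over 138 for PPIC and 63.5% over 159 for PPIB. It was 61.4% over 166 for PPID, 57.7% over 168 for PPIH and 56.6% over 159 for PPIG. The alignment of PPIC was the shortest, so these values do not settle its order against PPIB.

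The table holds 5 PPIF transcripts, and 4 of them had a mean of at least 10 estimated reads. The main protein-coding form, PPIF-201, took 3706 and 3957 estimated reads in Doxy(-) against 14545 and 15060 in Doxy(+). Its share of the PPIF reads was 91.0% and 86.1% in Doxy(-) against 87.9% and 87.6% in Doxy(+), so the groups overlapped in the share while differing in the count. PPIF-202, a second protein-coding form, took 312 and 577 estimated reads in Doxy(-) against 1771 and 1845 in Doxy(+), which is 7.65% and 12.6% against 10.7% and 10.7% of the gene. The libraries of Doxy(-) differed more from each other in this share than the groups did.

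The 2 minor PPIF forms were also higher in both Doxy(+) libraries. PPIF-204, which has no annotated coding sequence, took 37.6 and 44.9 estimated reads in Doxy(-) against 190 and 215 in Doxy(+). PPIF-203, annotated as a target of nonsense-mediated decay, took 17.0 and 14.4 estimated reads in Doxy(-) against 48.8 and 65.1 in Doxy(+). As a fold of the mean library share, the 4 forms stood at 4.19 for PPIF-201, 4.49 for PPIF-202, 5.34 for PPIF-204 and 3.89 for PPIF-203. These folds use plain library totals and not the adjusted totals behind the CPM values, so they cannot be set against the 4.08 of the gene. In the edgeR fit, PPIF-201 alone gave a log2 fold change of 2.02 against 2.03 for the gene. Reads are divided between these forms by the quantifier, and the small counts of the minor ones carry more error than the gene total.

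**Figure D4:**
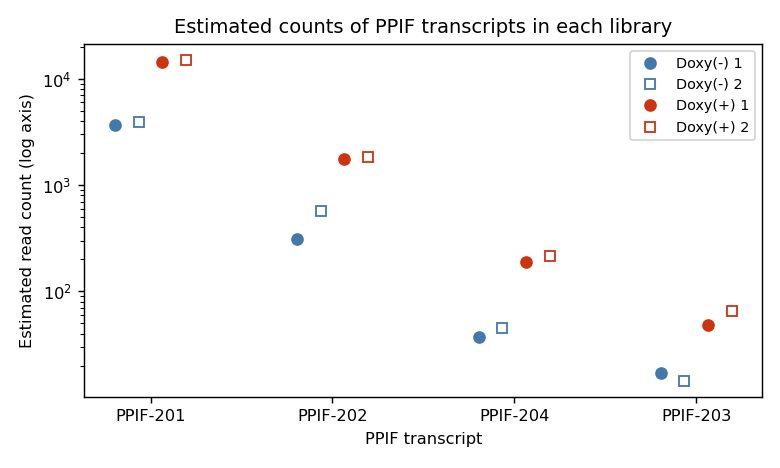
Estimated read counts of the 4 PPIF transcripts with a mean of at least 10 reads, on a log axis, with 1 point per library (Doxy(-) blue, Doxy(+) red, library 1 filled, library 2 open). For each transcript both Doxy(+) libraries lie above both Doxy(-) libraries, from 3706 and 3957 to 14545 and 15060 reads for PPIF-201.

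The nearest tested genes on chromosome 10 were examined for comparison. ZMIZ1, a transcriptional coregulator gene that ends 30949 bases before PPIF, was measured at 90.3 and 90.6 CPM in Doxy(-) against 114 and 113 CPM in Doxy(+). It rose by a log2 fold change of 0.33 ± 0.0425 (edgeR adjusted p = 0.00428), a call that was kept when any 1 library was left out but not by limma on log2(TPM + 1) or log2(TPM + 0.1) or with length-scaled counts, where the log2 fold change was 0.28, 0.29 and 0.25. ZCCHC24, which lies 26990 bases beyond the other end of PPIF on the opposite strand, was measured at 25.5 and 27.4 CPM in Doxy(-) against 31.5 and 30.6 CPM in Doxy(+), a log2 fold change of 0.23 ± 0.0745 that did not pass (edgeR adjusted p = 0.0844).

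To name the genes whose pattern was most like that of PPIF, the log2 CPM values of 9608 other genes whose mean was 10 CPM or more were centred, and their root mean square difference from PPIF over the 4 libraries was taken. RRAGD, a GTPase of the amino acid sensing pathway at the lysosome, was nearest at 0.0672 on the log2 scale, with 20.7 and 21.0 CPM in Doxy(-) against 78.4 and 77.9 CPM in Doxy(+). TNFRSF14, a receptor of the tumour necrosis factor family, followed at 0.0762, then TMEM144 at 0.124, GREB1 at 0.150 and CLCN5, an endosomal chloride-proton exchanger, at 0.164. With 4 libraries in 2 groups this likeness is mainly one of the size of the change.

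The remaining cyclophilins and the machineries in which the members act were then described from 11 gene lists, which hold 166 genes, 148 of them tested. Of these, 12 rose and 13 fell at an adjusted p under 0.05 (edgeR), which is 16.9% against 19.3% of all genes tested, where 9.76% were higher and 9.53% were lower. The median log2 fold change of the 148 genes was -0.02. Of the 25 calls, 24 had a log2 fold change under 0.5 in size, the exception being P4HA2. With 1 library fewer in the fit, 5 of the 25 were kept without library 1 of Doxy(+), 4 without library 2 of Doxy(+), 20 without library 1 of Doxy(-) and 18 without library 2 of Doxy(-), and the sign was kept for all 25 in each case. The 25 genes were chosen on calls from all 4 libraries, and each of these fits shares all but 1 of them. Kept signs and small moves of the log2 fold change were therefore likely in advance and are not read as support for the calls. Among the calls lost without library 1 and library 2 of Doxy(+), the log2 fold change moved by a median of 0.0172 and 0.0242. The largest moves were 0.0785 and 0.111. Over all genes, the 1325 higher calls likewise became 647 and 686 without these libraries. DESeq2 kept 16 of the 25, and limma on log2(TPM + 1) kept 4.

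Of 16 other cyclophilin genes, 8 passed the filter and 0 were called by edgeR or by DESeq2, with 2 at an unadjusted p under 0.05. Their log2 fold changes lay between -0.24 for PPIL2 and 0.08 for PPWD1, with a median of -0.09. The 15 tested FKBP and parvulin isomerases, which catalyse the same reaction with unrelated folds, included 1 gene that rose and 1 that fell. This is 13.3% called beside 19.3% of all genes tested, and DESeq2 called both genes. FKBP15, a regulator of the actin cytoskeleton, rose from 65.9 and 64.4 CPM to 88.5 and 79.6 CPM (log2 fold change 0.37, edgeR adjusted p = 0.0136, and 0.0813 without library 1 of Doxy(+)). FKBP10, a collagen chaperone of the endoplasmic reticulum, fell from 110 and 106 CPM to 92.5 and 83.3 CPM (log2 fold change -0.29, edgeR adjusted p = 0.024, and 0.123 without library 2 of Doxy(+)).

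Among the 16 tested genes of the permeability transition, the process with which cyclophilin D is linked, 4 rose and 0 fell. This is 25.0% of them beside 19.3% of all genes tested, and DESeq2 called only SLC25A4. The median log2 fold change of the 16 genes was 0.08 against 0.0006 over all genes tested. SLC25A4, the adenine nucleotide translocator ANT1, rose from 36.9 and 39.4 CPM to 48.2 and 50.9 CPM (log2 fold change 0.38, edgeR adjusted p = 0.0113, and 0.0771 without library 2 of Doxy(+)). SLC25A5, its close paralog, was at 399 and 382 CPM in Doxy(-) against 430 and 430 CPM in Doxy(+) (log2 fold change 0.14, edgeR adjusted p = 0.0356). BAK1, an effector of outer membrane permeabilisation (0.25, edgeR adjusted p = 0.0379), and HK1, a hexokinase that binds that membrane (0.16, edgeR adjusted p = 0.0472), also rose. The calls of BAK1 and HK1 were lost when any 1 library was left out, with adjusted p up to 0.213 and 0.290, and that of SLC25A5 was lost without 3 of the 4 libraries, with adjusted p up to 0.190. In size, each of the 4 changes was far below the 2.03 of PPIF.

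The F-ATP synthase, to which cyclophilin D is reported to bind and which has been proposed to form the pore, gave no calls: 0 of its 20 tested subunits passed in edgeR or in DESeq2, with 2 at an unadjusted p under 0.05 and a median log2 fold change of 0.03. Of 12 genes of mitochondrial calcium handling, 3 rose and 0 fell, which is 25.0% beside 19.3% of all genes tested. The 3 included MCUR1, a regulator of the calcium uniporter (log2 fold change 0.22, edgeR adjusted p = 0.0371), and LETM2 (log2 fold change 0.46, edgeR adjusted p = 0.0267). DESeq2 called 1 of the 3, and not MCUR1 or LETM2. The call of MCUR1 was lost without any 1 of the 4 libraries (adjusted p up to 0.196), and that of LETM2 without any but library 1 of Doxy(+) (adjusted p up to 0.129).

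Cyclophilin D is imported into the matrix, where it meets the matrix chaperones. Of 12 matrix chaperones and proteases, 1 rose and 2 fell, which is 25.0% beside 19.3% of all genes tested. DESeq2 called 2 of these genes, and not TRAP1. LONP1, the matrix protease, rose from 164 and 156 CPM to 201 and 190 CPM (log2 fold change 0.29, edgeR adjusted p = 0.00895, and 0.0706 without library 1 of Doxy(+)). TRAP1, the mitochondrial HSP90 that binds cyclophilin D, fell from 67.5 and 68.8 CPM to 56.7 and 55.2 CPM (log2 fold change -0.28, edgeR adjusted p = 0.015, and 0.0788 and 0.106 without library 1 or library 2 of Doxy(+)). HSPD1, the matrix chaperonin, fell from 905 and 893 CPM to 823 and 833 CPM (log2 fold change -0.12, edgeR adjusted p = 0.0297, and 0.212 and 0.161 without library 1 or library 2 of Doxy(+)). Of 16 tested genes of matrix protein import 0 rose and 3 fell, which is 18.8% beside 19.3% of all genes tested. All 3 were of the outer membrane translocase: TOMM40 (-0.25, edgeR adjusted p = 0.0156), TOMM70 (-0.24, edgeR adjusted p = 0.021) and TOMM6 (-0.20, edgeR adjusted p = 0.0437). DESeq2 called only TOMM70. The calls of TOMM40 and TOMM70 were lost without either library of Doxy(+), with adjusted p up to 0.106 and 0.147, and that of TOMM6 was lost without any 1 of the 4 libraries, with adjusted p up to 0.257.

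For PPIA, whose complex with cyclosporin A inhibits the phosphatase calcineurin, 9 genes of calcineurin and NFAT were tested and 0 were called by edgeR or DESeq2, with 2 at an unadjusted p under 0.05 and a median log2 fold change of 0.05. For PPIB, 14 genes of collagen modification in the endoplasmic reticulum were tested, of which 2 rose and 4 fell, with a median of -0.13. The calls were 42.9% of the list beside 19.3% of all genes tested, and DESeq2 called all 6. The list was not tested as a set. P4HA2, a subunit of collagen prolyl 4-hydroxylase, fell from 331 and 326 CPM to 178 and 180 CPM, a log2 fold change of -0.87 ± 0.0333 (edgeR adjusted p = 8.05e-05) that was called under each of the 13 other settings. PLOD3 rose (0.29, edgeR adjusted p = 0.0055) while PLOD2 fell (-0.29, edgeR adjusted p = 0.00784), both of them lysyl hydroxylases, and P3H2, a prolyl 3-hydroxylase, fell (-0.27, edgeR adjusted p = 0.00581). The calls of PLOD2 and P3H2 were lost without either library of Doxy(+), with adjusted p up to 0.0532 and 0.0527, and that of PLOD3 without library 1 of Doxy(+), with adjusted p = 0.0547. The remaining 2 calls, outside the rule for naming genes, were CRTAP, which forms a complex with PPIB and rose (0.23, edgeR adjusted p = 0.00871), and COLGALT1, which fell (-0.19, edgeR adjusted p = 0.0295), with both calls lost without either library of Doxy(+) (adjusted p up to 0.0855 and 0.176).

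For PPID, 10 genes of the HSP90 chaperone cycle were tested, of which 0 rose and 3 fell, with a median log2 fold change of -0.15. The calls were 30.0% of the list beside 19.3% of all genes tested, and DESeq2 called 2 of the 3, not AHSA1. HSP90AB1, the constitutive cytosolic HSP90, fell from 1717 and 1690 CPM to 1509 and 1514 CPM (log2 fold change -0.17, edgeR adjusted p = 0.00654), and its co-chaperones CDC37 (-0.22, edgeR adjusted p = 0.0163) and AHSA1 (-0.19, edgeR adjusted p = 0.0295) fell as well. All 3 calls were lost without either library of Doxy(+), with adjusted p up to 0.0683, 0.117 and 0.193, and that of AHSA1 also without library 2 of Doxy(-), with adjusted p = 0.0584. For PPIH and PPIE, 16 spliceosome genes were tested, of which 1 rose and 0 fell, with a median of -0.06. This is 6.25% called beside 19.3% of all genes tested, and DESeq2 called the same gene. PRPF19, a ubiquitin ligase of the activated spliceosome, rose from 98.6 and 91.2 CPM to 118 and 122 CPM (log2 fold change 0.34, edgeR adjusted p = 0.00879, and 0.0579 without library 2 of Doxy(+)).

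**Figure D5:**
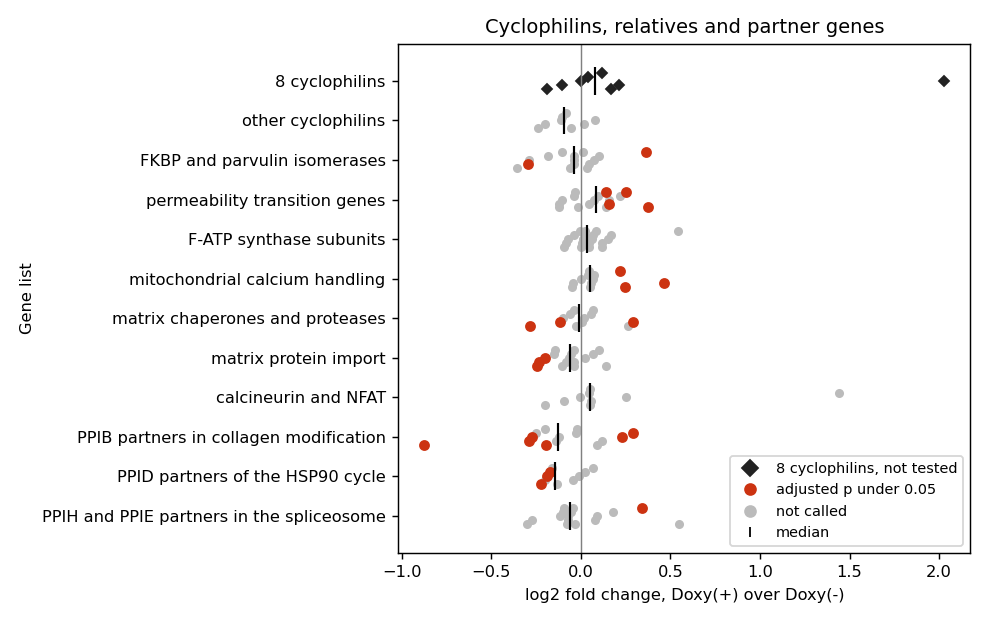
Log2 fold change, Doxy(+) over Doxy(-), of the 8 cyclophilins (black diamonds, not tested) and of the tested genes of each of the 11 lists, with genes at an edgeR adjusted p under 0.05 in red, other genes in grey and a vertical line at the median of each row. PPIF stands at 2.03, and the 25 called genes lie between -0.87 and 0.46.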

How the data were processed

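RNA of 4 libraries was sequenced from a stranded TruSeq mRNA kit. The authors deposited, per Ensembl transcript, an estimated count, not normalized and not whole, and a TPM value, scaled by their quantifier. Trim Galore 0.6.6, cutadapt 2.5 and STAR 2.7.9a on hg38 are listed in the submitters' processing notes, and the study's methods name RSEM, with a version, for TPM, but the deposited columns have the layout of kallisto. Which tool made these files, from which Ensembl release, and whether counting used the strand, is not given in the sources used here.

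Of 180253 identifiers, 150691 (83.6%) matched GENCODE release 44. The unmatched ones held between 9.66% and 9.89% of the counts and were left out, and none of them copied a transcript of the 8 cyclophilins. Counts were summed per gene, rounded and fitted with edgeR 4.0.16 in R 4.3.3 (glmQLFit, glmQLFTest, TMM, filterByExpr, group as the only term), with Benjamini-Hochberg adjustment over 13569 genes. Log2 fold changes are Doxy(+) over Doxy(-), with the SE implied by the quasi-likelihood F statistic. CPM uses the TMM-adjusted totals, and the common biological coefficient of variation was 6.53%. The 2 libraries of a group differed by more than sampling noise (chi-square per degree of freedom 4.04 and 2.91). DESeq2 1.42.0, limma 3.58.1 on log2(TPM + 1) or log2(TPM + 0.1), other filters, length-scaled counts and fits without 1 library were alternatives.

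The cyclophilins and the 11 lists were chosen with earlier results of these data known. Of each list, the genes named are those called, at most the 4 with the smallest p, except for a gene that is not reported here. Start sites and coding sequences are those of the canonical transcripts.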

Additional observations from a re-analysis of the deposited data

How the results depend on the processing

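The log2 fold change of PPIF, 2.03, was 2.02 without a low-count filter, 2.09 and 2.10 by limma on log2(TPM + 1) and log2(TPM + 0.1), 2.06 with length-scaled counts, 2.02 from PPIF-201 alone and 2.02 to 2.03 when 1 library was left out. Its excess over the paralog median, 1.99, was 2.05 under both limma settings, 2.05 with length-scaled counts and 1.99 to 2.03 without 1 library. All these kept their direction, as did PPIC, PPID and PPIH under 13 alternatives. PPIE and PPIG also kept their sign but came as near to 0 as -0.003 and 0.005 when 1 library was left out. Their groups overlapped, so no direction is read from them. PPIA and PPIB changed sign around 0.

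Counts of calls depended more on the setting. The 1325 genes higher in Doxy(+) became 776 by DESeq2, 590 and 567 by limma, 666 with length-scaled counts, 621 at an adjusted p under 0.01 and 647 to 1233 without 1 library. The 1293 lower genes became 779, 303 and 285, 575, 554 and 565 to 1308 in the same order. Of the partner and relative genes, the 12 higher became 7 by DESeq2, 3 and 3 by limma, 3 with length-scaled counts and 3 to 9 without 1 library, and the 13 lower became 1 and 1 by limma, 2 with length-scaled counts and 1 to 17 without 1 library. Where no library was left out, the cause was not tested.

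The labels number the libraries 1 and 2 in each group, but the deviations of same-numbered libraries were not correlated (r = -0.0147 across genes), so the numbers were not taken to pair them. With a replicate block the log2 fold change of PPIF was 2.03, and 22 of the 25 partner calls were kept. Leaving out a library leaves its group with 1, which is then assumed to vary like the other group.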
